A study of Mus musculus with 8 samples.

Results

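The 35 genes described here encode the tricarboxylic acid (TCA) cycle, the entry of pyruvate into it and the use of glutamate to feed it. They were taken by exact symbol from a list, and all 35 were found among the 24421 genes of the count tables. Expression was measured by 3' RNA-seq, which counts reads at the polyadenylated ends of transcripts, in mouse CD8+ T cells, the cytotoxic T cells. Naive cells had been stimulated for 48 hours on plate-bound antibodies to CD3 and CD28. The 4 control libraries came from cells labelled LKB1 wild type and the 4 others from cells labelled LKB1-deficient. Both groups received the same stimulation. LKB1, encoded by Stk11, is the kinase that activates AMPK, a sensor of cellular energy. The labels name no allele, Cre driver, mouse strain or age, and do not state whether replicates came from separate mice. The p-values therefore measure only the spread between these libraries.

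Pyruvate made by glycolysis enters mitochondria through a carrier of 2 proteins and is turned into acetyl-CoA by the pyruvate dehydrogenase complex, which kinases switch off and phosphatases switch on. The TCA cycle oxidises the acetyl group, passing electrons to the respiratory chain, and its intermediates also leave for biosynthesis. Activated T cells take up large amounts of glutamine, which reaches the cycle as glutamate and then 2-oxoglutarate.

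Libraries held 7090252 to 12211930 gene counts in the control group and 3454388 to 6356125 in the LKB1-deficient group. The 35 genes together took 0.481% to 0.599% of gene counts in control and 0.35% to 0.474% in LKB1-deficient libraries. Levels are given as CPM, the gene's share of a library's counts after TMM scaling (trimmed mean of M values), as mean ± SD with n = 4 in each group. A positive log2 fold change means a higher level in LKB1-deficient libraries. A gene is called when its edgeR quasi-likelihood p, adjusted by Benjamini-Hochberg over all genes tested, is under 0.05. Stk11 was at 67.8 to 101 CPM in control and 64.4 to 107 CPM in LKB1-deficient libraries (adjusted p = 0.911). These 3' tags check the genotype only if they lie in the deleted part, which is not stated. All 5 CD8 T cell markers were detected, and their summed level was 2984 to 3533 CPM in control and 1498 to 2428 CPM in LKB1-deficient libraries. Of these markers 3 were called, all lower (Cd8a, Cd3d and Cd3g), while Cd3e was at 65.3 to 89.4 CPM in control and 76 to 121 CPM in LKB1-deficient libraries. Cd8b1 was not called, at 492 to 607 CPM in control and 285 to 478 CPM in LKB1-deficient libraries, without overlap. The groups also did not overlap in reads outside annotated genes (12.1% to 14.3% in control, 14.9% to 17.5% in LKB1-deficient libraries) or in multiply aligned reads per gene count (2.92 to 3.5 and 2.21 to 2.65). LKB1-deficient replicates 2 and 4 were the extremes of both measures. Of 5 mast cell and basophil markers 3 reached a mean of 1 CPM, and their sum was 2.96 to 4.54 CPM in control and 4.22 to 20.7 CPM in LKB1-deficient libraries, with Fcer1a at 0 in 4 libraries. Erythroid markers were at 0 in all libraries, and summed levels of the CD4 T cell, B cell, macrophage, dendritic cell and neutrophil lists stayed under 13 CPM. The NK cell list, 581 to 749 and 328 to 648 CPM, came from 3 genes of which only 1 passed a mean of 1 CPM. Whether these differences have a part in the results was not tested, and in bulk RNA fewer cells of a type and less RNA per cell cannot be told apart.

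In LKB1-deficient cells 5 genes fell: Sdhb and Sdhc of succinate dehydrogenase, Fh1, fumarate hydratase, Mdh1, the cytosolic malate dehydrogenase, and Idh2, a mitochondrial isocitrate dehydrogenase. They were 1.47- to 1.8-fold lower. Ogdh, the catalytic subunit that oxidises 2-oxoglutarate, was 1.48-fold higher. The genes that bring pyruvate into the cycle and those that handle glutamate gave no call.

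Of the 35 genes 34 passed the filter on low counts and were tested, and Pdk2 did not. Among the 34, 5 were called lower, or 14.7%, against 10.1% of all 10396 genes tested. Only 1 was called higher, or 2.94%, against 12.4% of all genes. The median log2 fold change was -0.22 over the 34 genes and 0.00 over all genes, and 26 of the 34 had a negative value against 49.7% of all genes. Libraries of the groups did not overlap in 8 genes that were lower, or 23.5%, against 14.1% of all genes. They did not overlap in 3 genes that were higher, or 8.82%, against 12% of all genes. The share called lower was thus not far from the background, while the negative sign was more common than among all genes. Scaling by total counts moved the median of all genes to -0.16 and that of the 34 genes to -0.38.

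**Figure D1:**
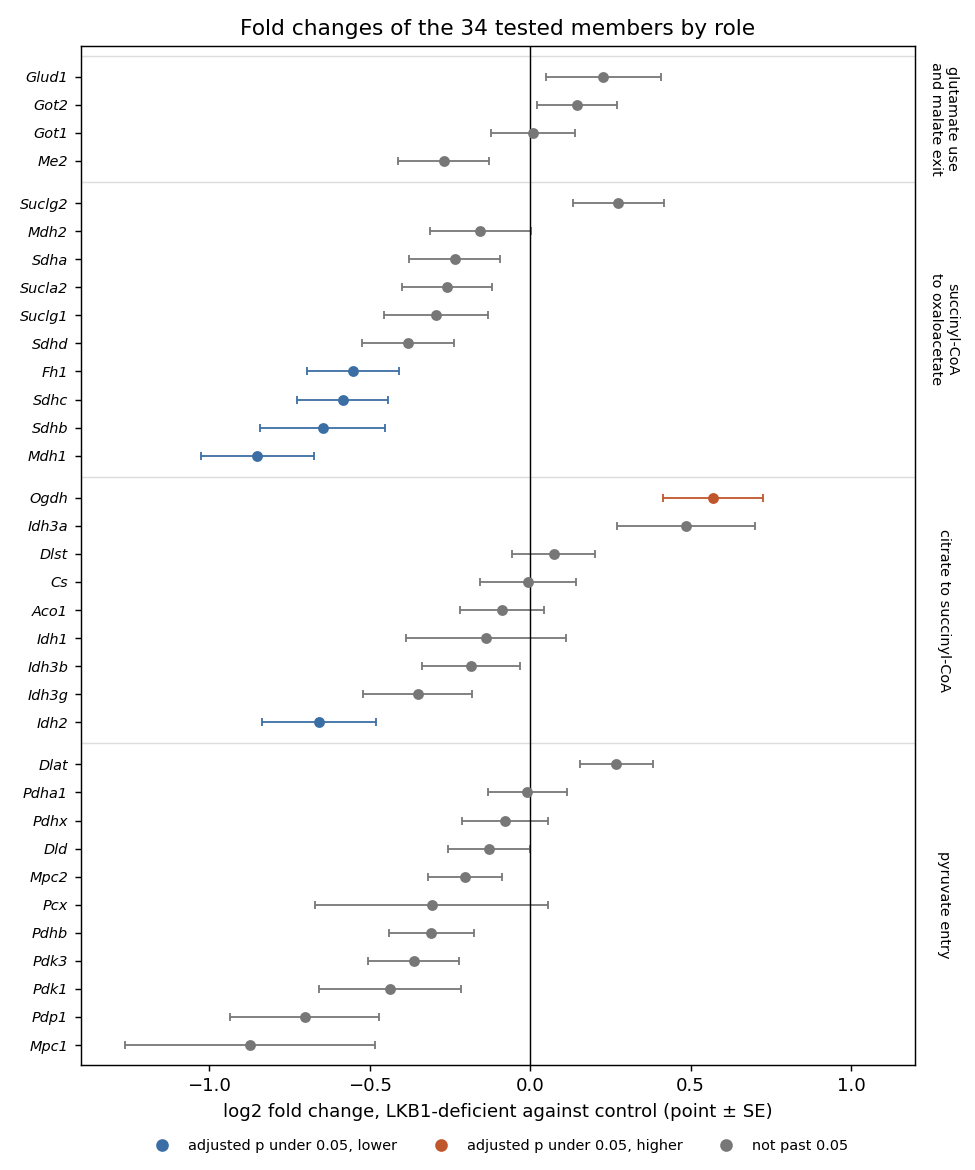
Log2 fold change, LKB1-deficient against control, of the 34 tested genes, grouped by role; points are edgeR estimates, bars are ± SE, and colours mark an adjusted p under 0.05. The 4 called genes of the block from succinyl-CoA to oxaloacetate, among them the cytosolic Mdh1, lie between -0.85 and -0.55. Ogdh alone is called higher.

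In the block from succinyl-CoA to oxaloacetate 4 of 10 genes fell, none rose and 6 did not pass. Among all genes tested 10.1% were called lower and 12.4% higher. The block includes the cytosolic Mdh1 beside the enzymes of the cycle itself. Mdh1, cytosolic malate dehydrogenase of the malate-aspartate shuttle, was at 444, 415, 526 and 546 CPM in control replicates 1 to 4. It was at 270, 206, 335 and 260 CPM in LKB1-deficient replicates 1 to 4. Every LKB1-deficient library lay below every control library, and replicate 2 was the lowest. The log2 fold change was -0.85 ± 0.18 (SE, edgeR adjusted p = 0.0117), and this gene lies on chromosome 11 from 21556787 to 21572367 on the minus strand of GRCm38, the assembly also called mm10. Mdh2, the mitochondrial enzyme of the cycle itself, went from 568 ± 63 to 510 ± 77.3 CPM (adjusted p = 0.486), with overlapping groups.

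Succinate dehydrogenase, which is also complex II of the respiratory chain, has 4 subunits. Sdhc, a membrane anchor (chromosome 1, 171127165 to 171150603, minus strand), was at 215, 196, 217 and 260 CPM in control libraries and 168, 132, 159 and 133 CPM in LKB1-deficient libraries. The groups were apart, and LKB1-deficient replicates 2 and 4 were the lowest (log2 fold change -0.58 ± 0.14, edgeR adjusted p = 0.0195). Sdhb, the iron-sulfur subunit (chromosome 4, 140961203 to 140979193, plus strand), was at 372, 364, 513 and 573 CPM in control libraries and 347, 264, 314 and 239 CPM in LKB1-deficient libraries. The gap was narrow, since control replicate 2 lay just above LKB1-deficient replicate 1 (log2 fold change -0.65 ± 0.19, edgeR adjusted p = 0.039). Sdhd, the other anchor, was at 121, 115, 146 and 158 CPM in control libraries and 110, 98.2, 114 and 92.2 CPM in LKB1-deficient libraries, and its groups did not overlap either. It missed the threshold (log2 fold change -0.38 ± 0.14, adjusted p = 0.0759). Sdha, the flavoprotein subunit, went from 220 ± 15.3 to 187 ± 28.6 CPM (adjusted p = 0.237). All 4 subunits had a negative fold change, and 2 of them passed.

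Fh1, fumarate hydratase (chromosome 1, 175600374 to 175625635, minus strand), was at 182, 157, 205 and 199 CPM in control libraries. In LKB1-deficient libraries it was at 140, 109, 141 and 116 CPM, so no LKB1-deficient library reached the controls. Its log2 fold change was -0.55 ± 0.14 (edgeR adjusted p = 0.0234). The succinyl-CoA ligase, which makes ATP or GTP, did not give a call. Its shared subunit Suclg1 went from 262 ± 37.3 to 214 ± 34.8 CPM, its ATP-forming subunit Sucla2 from 104 ± 6.45 to 87.3 ± 14.2 CPM, and its GTP-forming subunit Suclg2 from 28.7 ± 4.4 to 34.8 ± 2.46 CPM. Their adjusted p-values were 0.203, 0.194 and 0.176.

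**Figure D2:**
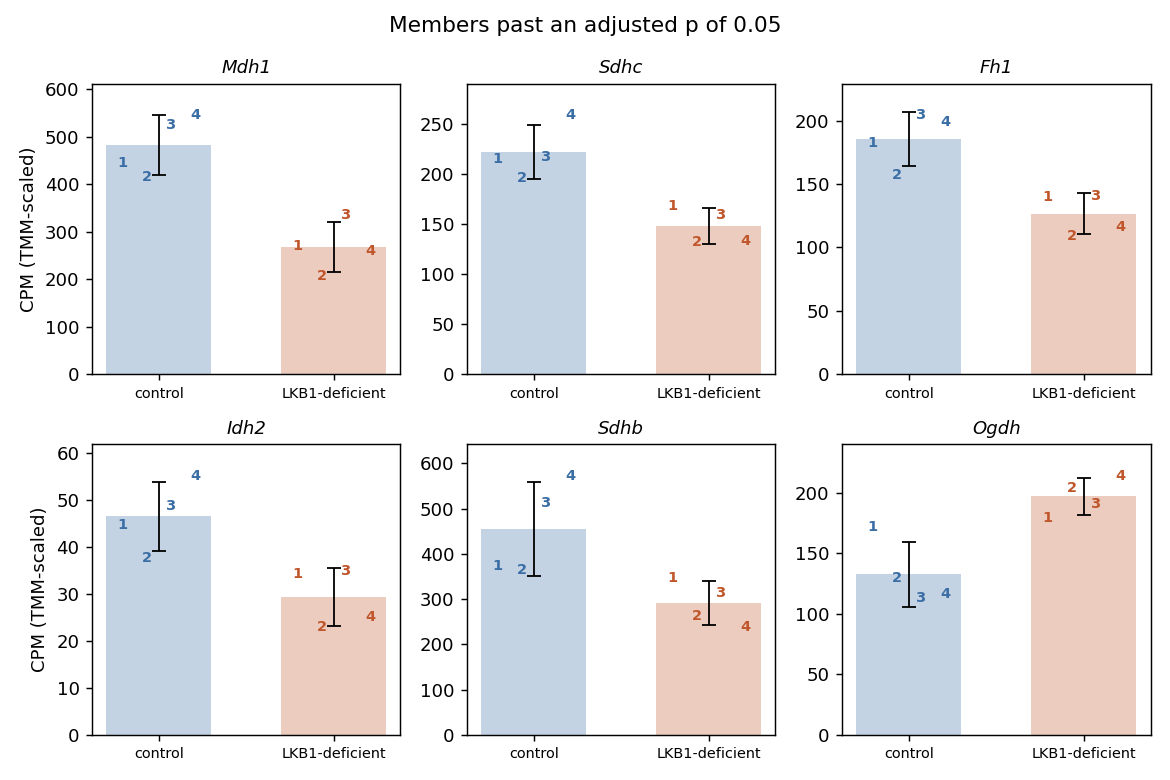
CPM of the 6 called genes in each library; bars are group means, error bars are SD, and digits are replicate numbers. Within each gene the 4 LKB1-deficient libraries lie on one side of all 4 controls, with the smallest gaps relative to the level for Sdhb and Ogdh.

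From citrate to succinyl-CoA 1 of 9 genes rose, 1 fell and 7 did not pass, against 12.4% higher and 10.1% lower among all genes. Ogdh (chromosome 11, 6291633 to 6356642, plus strand) was at 171, 129, 113 and 117 CPM in control libraries and 179, 204, 190 and 214 CPM in LKB1-deficient libraries. Control replicate 1 stood closer to the LKB1-deficient group than to the other controls, yet the groups did not overlap (log2 fold change 0.57 ± 0.16, edgeR adjusted p = 0.029). The partners of Ogdh in its complex did not give a call. Dlst, the succinyltransferase, went from 91.2 ± 5.48 to 96 ± 13.3 CPM, and Dld, the dihydrolipoyl dehydrogenase shared with pyruvate dehydrogenase, from 179 ± 10.3 to 163 ± 18.8 CPM (adjusted p = 0.701 and 0.477).

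Idh2, the NADP-dependent mitochondrial enzyme (chromosome 7, 80094846 to 80115392, minus strand), was at 44.6, 37.6, 48.7 and 55.2 CPM in control libraries and 34.3, 23, 34.9 and 25.1 CPM in LKB1-deficient libraries. Again the groups were apart, with LKB1-deficient replicates 2 and 4 lowest (log2 fold change -0.66 ± 0.18, edgeR adjusted p = 0.0279). Its cytosolic counterpart Idh1 went from 8.34 ± 2.4 to 7.47 ± 1.48 CPM (adjusted p = 0.713). The NAD-dependent isocitrate dehydrogenase of the cycle is built from Idh3a, Idh3b and Idh3g, which did not move alike in the values. Idh3a, the catalytic subunit, was at 155, 128, 151 and 148 CPM in control libraries and 157, 176, 168 and 313 CPM in LKB1-deficient libraries. All LKB1-deficient values were higher, but replicate 4 stood far above the others, and the log2 fold change of 0.49 ± 0.22 did not pass (adjusted p = 0.123). Idh3g, a regulatory subunit, was at 134, 117, 166 and 169 CPM in control libraries and 145, 108, 108 and 99.2 CPM in LKB1-deficient libraries (adjusted p = 0.149), and these groups overlapped. Idh3b, the remaining subunit, went from 183 ± 18.4 to 161 ± 27.1 CPM (adjusted p = 0.393). Citrate synthase, Cs, which opens the cycle, was nearly level at 254 ± 26.5 and 253 ± 38.3 CPM, with an SE of 0.15 around a log2 fold change of -0.01. Aco1, the cytosolic aconitase, went from 25.7 ± 3.1 to 24.2 ± 1.23 CPM (adjusted p = 0.643).

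Pyruvate entry covered 12 genes, of which 11 were tested, and none passed. At an unadjusted p under 0.05, 1 was higher and 4 were lower by edgeR. Of all 10396 genes tested, 2164 were higher and 1918 lower at that threshold. The DESeq2 Wald test called 1 higher, Dlat, and 1 lower, Pdp1, and limma-voom called Pdp1 lower. Of all 10396 genes, the DESeq2 Wald test called 1704 higher and 1343 lower, and limma-voom 1203 higher and 1010 lower. Pdp1, the phosphatase subunit that switches pyruvate dehydrogenase on, was at 8.26, 8.04, 8.4 and 7.4 CPM in control libraries and 5.91, 5.54, 5.51 and 2.7 CPM in LKB1-deficient libraries. The groups were apart and replicate 4 was lowest, but the edgeR adjusted p of 0.0527 lay just past the threshold (log2 fold change -0.7 ± 0.23). The kinases that switch the complex off had negative values without a call. Pdk1 was at 126, 125, 156 and 117 CPM in control libraries and 122, 74, 126 and 64.2 CPM in LKB1-deficient libraries (log2 fold change -0.44 ± 0.22, adjusted p = 0.17). LKB1-deficient replicates 1 and 3 lay within the control range and replicates 2 and 4 well below it. Pdk3 was at 80.9, 94.2, 94.1 and 88.1 CPM in control libraries and 73.4, 60, 84.5 and 59.3 CPM in LKB1-deficient libraries (log2 fold change -0.36 ± 0.14, adjusted p = 0.0881). One LKB1-deficient library of Pdk3, replicate 3, overlapped the controls. Pdk2 was near the floor, with 17, 17, 17 and 7 counts in control libraries and 4, 1, 0 and 2 counts in LKB1-deficient libraries.

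Of the subunits of pyruvate dehydrogenase, Pdhb, the beta subunit of the decarboxylase, was at 97.6, 83.9, 111 and 116 CPM in control libraries and 90.9, 81, 78.2 and 79.8 CPM in LKB1-deficient libraries (log2 fold change -0.31 ± 0.13, adjusted p = 0.115). The groups overlapped through LKB1-deficient replicate 1. Pdha1, the alpha subunit, was level at 179 ± 14.3 and 178 ± 13.7 CPM. Reads of Pdha1 may be affected, since 102 of the last 300 bases of its longest coding transcript match a transcript of Map3k15 without a difference. The search covered both strands and did not tell a copy from a stretch of the genome shared by both genes. Whether reads were affected in these strand-specific libraries was not tested. No other of the 35 genes had a stretch of at least 100 bases with 95% identity to another gene's transcript in its last 300 bases. Dlat, the acetyltransferase core, was at 75.1 ± 5.42 and 90.5 ± 5.99 CPM without overlap (log2 fold change 0.27 ± 0.11, adjusted p = 0.108). Pdhx, which anchors Dld to that core, went from 32.3 ± 3.74 to 30.7 ± 3.12 CPM (adjusted p = 0.697). The 2 proteins of the mitochondrial pyruvate carrier differed in depth of counting. Mpc1 rested on 21, 19, 29 and 12 counts in control libraries and 3, 1, 8 and 5 in LKB1-deficient libraries, which were 1.89, 1.54, 2.19 and 1.56 CPM and 0.844, 0.291, 1.26 and 1.35 CPM. Every LKB1-deficient value was lower, but the log2 fold change of -0.87 had an SE of 0.39 (adjusted p = 0.124). Mpc2 went from 95.7 ± 4.89 to 83 ± 7.5 CPM (adjusted p = 0.211). Pcx, pyruvate carboxylase, which makes oxaloacetate directly from pyruvate, was also low at 2.48 ± 0.338 and 1.89 ± 1.04 CPM (adjusted p = 0.557).

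None of the 4 genes of glutamate use and malate exit passed in edgeR, DESeq2 or limma-voom, and 0 had an unadjusted edgeR p under 0.05. Glud1, glutamate dehydrogenase, was at 129 ± 29.5 and 151 ± 22.5 CPM (log2 fold change 0.23 ± 0.18, adjusted p = 0.365). Got1 and Got2, the cytosolic and mitochondrial aspartate aminotransferases, were at 103 ± 11.6 and 104 ± 10.3 CPM and at 43.2 ± 2.95 and 47.9 ± 5.76 CPM (adjusted p = 0.965 and 0.404). Me2, a malic enzyme that turns malate back into pyruvate, was at 213 ± 21.6 and 176 ± 23.7 CPM (log2 fold change -0.27 ± 0.14, adjusted p = 0.181).

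Sequences before a RefSeq transcript start are shown for called genes because 5 of these genes changed in the same direction and Ogdh in the other. The bases are those 150 to 1 before the RefSeq transcript start nearest the annotated gene start, 5' to 3' on the gene's strand, from RefSeq on GRCm38.p6; a promoter of Sdhc is not shown. Capitals mark matches on either strand to GCATGCGC (core of the NRF1 site), CCGGAAG (ETS), AAGGTCA (estrogen-related receptor), CACGTG (E-box) or TGACGTCA (cyclic AMP response element). The last motif was added after the sequences had been read.
Mdh1 (chr11:21571935-21572084, minus strand): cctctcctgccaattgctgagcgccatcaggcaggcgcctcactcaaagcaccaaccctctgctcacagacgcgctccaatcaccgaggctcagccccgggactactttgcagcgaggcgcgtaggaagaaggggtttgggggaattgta
Fh1 (chr1:175625636-175625785, minus strand): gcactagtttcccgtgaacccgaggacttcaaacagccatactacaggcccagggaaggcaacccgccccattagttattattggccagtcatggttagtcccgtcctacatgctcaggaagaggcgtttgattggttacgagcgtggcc
Idh2 (chr7:80115351-80115500, minus strand): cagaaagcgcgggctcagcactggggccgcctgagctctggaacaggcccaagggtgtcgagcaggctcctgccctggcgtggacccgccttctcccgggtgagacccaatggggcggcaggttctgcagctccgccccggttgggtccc
Sdhb (chr4:140961121-140961270, plus strand): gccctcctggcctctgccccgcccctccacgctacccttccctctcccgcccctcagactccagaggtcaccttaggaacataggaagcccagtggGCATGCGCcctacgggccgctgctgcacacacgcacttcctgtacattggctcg
Ogdh (chr11:6291509-6291658, plus strand): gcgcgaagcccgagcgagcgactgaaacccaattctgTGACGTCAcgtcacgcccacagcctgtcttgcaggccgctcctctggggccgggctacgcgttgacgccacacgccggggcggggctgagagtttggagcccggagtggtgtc

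The NRF1 core stood in the Sdhb window, beginning 54 bases before the start, and the cyclic AMP response element stood in the Ogdh window, beginning 113 bases before it. No listed motif was in the Mdh1, Fh1 and Idh2 windows. By the gene positions given above, the Mdh1 window lies wholly inside the annotated gene. The bases before the annotated start of Mdh1 were not searched. The Idh2, Sdhb and Ogdh windows run partly into the annotated gene, and the NRF1 core of Sdhb lies in that part. Of all 32851 windows of 150 bases in the RefSeq table, 1.82% held the NRF1 core and 1.36% the cyclic AMP response element. The shares were 5.52% for the ETS motif, 2.31% for the estrogen-related receptor motif and 4.3% for the E-box. Among the 31 of the 35 genes with an entry, the NRF1 core was in Sdhb and Glud1 and the cyclic AMP response element in Ogdh and Mdh2. The ETS motif was in Idh3g and Sdhd, the E-box in Pdk2, and the estrogen-related receptor motif in none. These matches describe letters in a window only.

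A ratio of 2 genes within a library does not depend on how libraries are scaled, so 7 such ratios were compared by an exact two-sided permutation test over the 8 libraries. With 4 against 4 the smallest p this test can give is 0.0286. The log2 ratio of Mdh2 to Mdh1, mitochondrial over cytosolic malate dehydrogenase, was 0.244, 0.292, 0.179 and 0.237 in control libraries and 1.2, 1.11, 0.472 and 0.978 in LKB1-deficient libraries. It was higher in 4 of 4 LKB1-deficient libraries, by 0.7 on average (exact permutation p = 0.0286, 0.1 when adjusted over the 7 ratios). The log2 ratio of Sucla2 to Suclg2, the ATP-forming over the GTP-forming subunit, was 1.77, 1.94, 2.18 and 1.59 in control libraries and 1.37, 0.967, 1.43 and 1.48 in LKB1-deficient libraries. All 4 LKB1-deficient libraries were lower, and the mean difference was -0.56 (exact permutation p = 0.0286, adjusted 0.1). Neither ratio passed after adjustment. With only these 2 ratios at the smallest possible p, 0.1 was the lowest adjusted value they could reach. An adjusted p under 0.05 would have needed more of the 7 ratios at the smallest p. The ratio of Mdh2 to Mdh1 also holds Mdh1, itself a called gene, so it is not separate support. Among all 10396 single genes tested, the groups did not overlap in 12% that were higher and 14.1% that were lower. The share over all pairs of genes was not computed. The log2 ratio of Idh2 to Idh1 differed by -0.56 with overlapping groups (exact permutation p = 0.0857, adjusted 0.15). The other ratios, Mpc1 to Mpc2 (-0.72), Pdk1 to Pdp1 (0.25), Got2 to Got1 (0.14) and Pdk1 to Pdk3 (-0.12), gave exact permutation p-values of 0.0857, 0.229, 0.286 and 0.486. That of Mpc1 to Mpc2 rested on few Mpc1 counts and came to -0.31 when 2 counts instead of 0.5 were added to each gene.

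**Figure D3:**
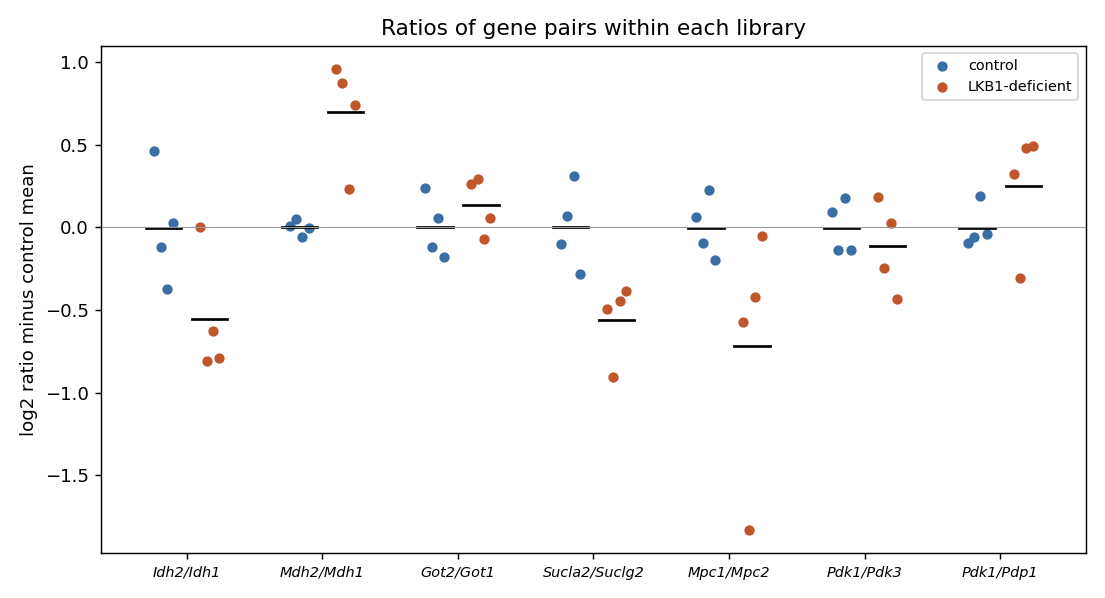
Log2 ratio of 2 genes in each library after subtracting the control mean of that ratio; points are libraries and black lines are group means. The LKB1-deficient points of Mdh2/Mdh1 all lie above the controls (mean difference 0.7) and those of Sucla2/Suclg2 all lie below (mean difference -0.56).

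Other genes of the pathway, from a list of 37, stood around these steps, and 29 of them were tested. Of these 4 were called higher, 3 lower and 22 did not pass. Among all genes tested 12.4% were called higher and 10.1% lower, so both counts were close to the background. The glutamine transporters Slc38a1 and Slc38a2 were 1.57-fold and 1.78-fold higher (edgeR adjusted p = 0.0133 and 0.0446). The groups overlapped in Slc38a2, with control replicate 1 at 153 CPM and LKB1-deficient replicate 3 at 135 CPM. Slc38a2 passed in 6 of 21 other settings only, and without LKB1-deficient replicate 4 its log2 fold change went from 0.83 to 0.52 (adjusted p = 0.109). Slc1a5, another glutamine transporter, went from 326 ± 21.9 to 257 ± 41.3 CPM (adjusted p = 0.111). The 2 phosphatase catalytic subunits of pyruvate dehydrogenase differed in sign. Pdp2 was at 13.5, 11.9, 14.8 and 9.61 CPM in control libraries and 16.3, 26.5, 23.9 and 24.5 CPM in LKB1-deficient libraries (1.83-fold higher, edgeR adjusted p = 0.0133), while Pdp1 had a negative value, as given above.

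Of 4 assembly factors of succinate dehydrogenase, Sdhaf1 and Sdhaf4 fell and Sdhaf2 and Sdhaf3 did not pass. Sdhaf1 was at 44.9, 41.4, 45.4 and 50.9 CPM in control libraries and 34, 33.2, 29.9 and 25.3 CPM in LKB1-deficient libraries (1.49-fold lower, edgeR adjusted p = 0.0164). Sdhaf4 was 1.52-fold lower (edgeR adjusted p = 0.0189), Sdhaf3 was at 8.22 ± 1.31 and 5.48 ± 0.617 CPM (adjusted p = 0.0571), and Sdhaf2 was at 82.1 ± 4.9 and 79.2 ± 8.53 CPM (adjusted p = 0.784). Ldhb, a lactate dehydrogenase subunit, fell from 12.5 ± 1.32 to 2.43 ± 1.07 CPM, and Ldha, the main subunit in T cells, was at 3102 ± 345 and 2209 ± 622 CPM (edgeR adjusted p = 0.00268 and 0.119). Me1, the cytosolic malic enzyme, singled out after its values were seen, had 2, 0, 5 and 1 counts in control libraries and 3, 5, 13 and 7 counts in the shallower LKB1-deficient libraries, too few to be tested. Pdk4 had 0 counts in all libraries.

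**Figure D4:**
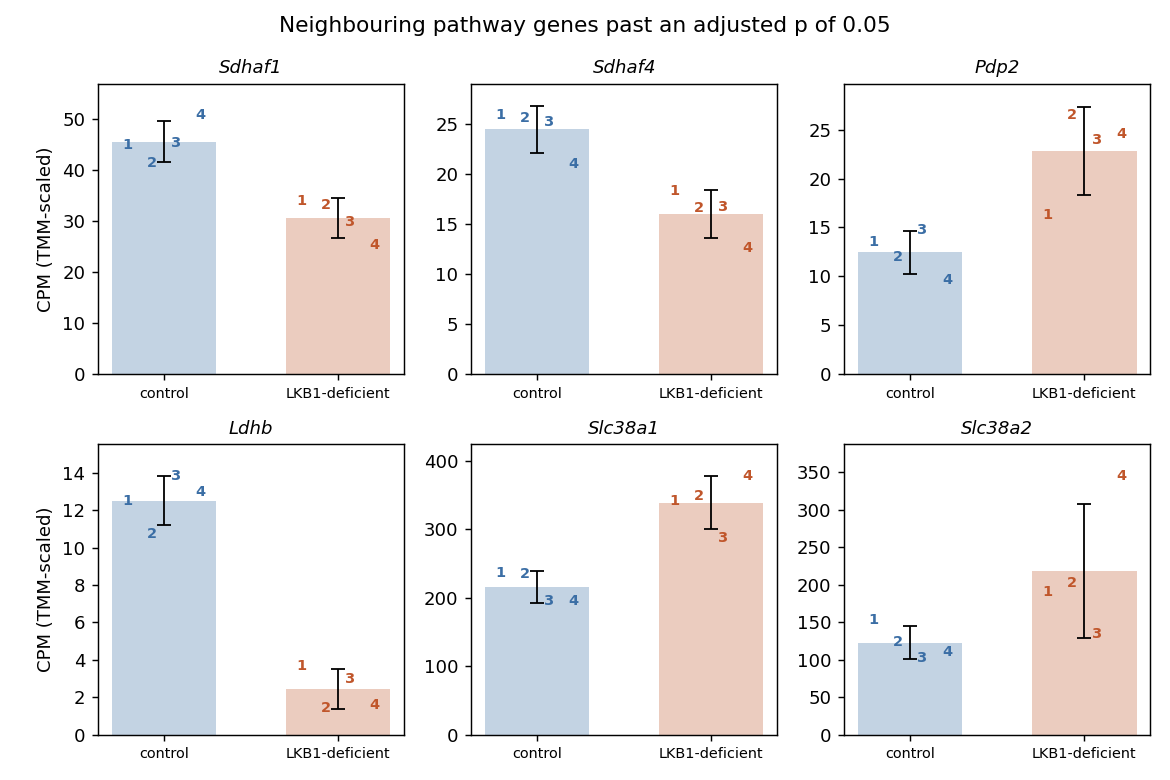
CPM of 6 called genes among the 29 tested neighbours of the cycle; bars are group means, error bars are SD, and digits are replicate numbers. Sdhaf1, Sdhaf4 and Ldhb are lower, and Pdp2, Slc38a1 and Slc38a2 higher, in LKB1-deficient libraries, with overlapping groups for Slc38a2.

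Transcript length moved with the group difference across all genes, and 20 of the 34 genes lay in the 2 bins of shorter transcripts when all genes were split into 5 bins of length. Over all genes with a length, the median log2 fold change went from -0.26 in the bin of the shortest transcripts (up to 1929 bases) to 0.36 in the bin of the longest (5159 bases and more). In the shortest bin 5 of the 34 genes, among them Mpc1 with its few counts, had a median of -0.65 against -0.26 for all genes. In the next one 15 of the 34 had -0.18 against -0.11. The longest transcript was 1232 bases for Sdhb, 1790 for Idh2, 2122 for Mdh1, 2636 for Fh1, 3171 for Sdhc and 4127 for Ogdh. With the length trend of each library removed, the median of the 34 genes was -0.13 against 0.01 for all genes. Then 5 genes were called lower and 1 higher, against 8.27% and 9.36% of all genes. Mdh1 (log2 fold change -0.71, edgeR adjusted p = 0.0145), Sdhc, Fh1, Idh2 and Ogdh kept their calls, Sdhb lost its call (log2 fold change -0.37, adjusted p = 0.105), and Pdp1 gained one (-0.77, adjusted p = 0.0464). Among the neighbours Slc38a1, Slc38a2 and Sdhaf4 lost theirs (adjusted p = 0.131, 0.119 and 0.342). Mdh2, at 1606 bases, has a shorter transcript than Mdh1, at 2122, and Sucla2, at 2229, a shorter one than Suclg2, at 3367. The ratios of these genes were not recomputed with the length trend removed, so a part of length in them was not tested.

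**Figure D5:**
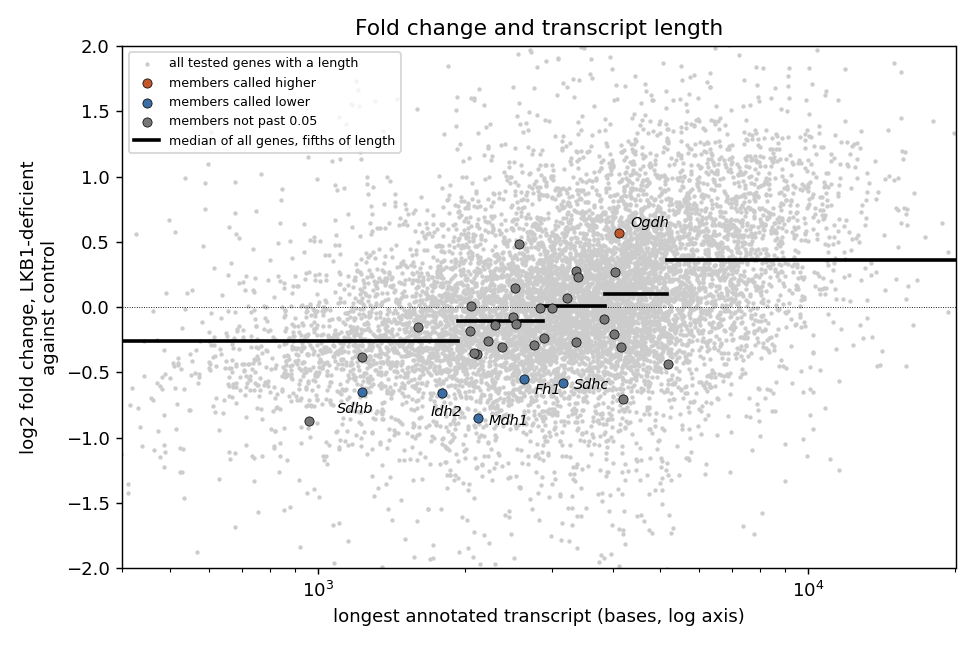
Log2 fold change against the longest annotated transcript on a log axis. Small grey points are all tested genes with a length, and black lines are their medians in 5 bins of length. Larger outlined points are the 34 tested members of the gene list. The axes leave out the most extreme genes. Medians run from -0.26 to 0.36, and Mdh1, Sdhc and Fh1 lie well below the line of their bin.

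The calls also depended on single libraries. LKB1-deficient replicates 2 and 4 were the 2 libraries farthest from the control mean in 17 of the 34 genes. The same count was not made over all genes, so it cannot be read as particular to these 34. The 2 libraries also had the lowest TMM factors, 0.89 and 0.864, against 1.001 to 1.088 in the others. With both left out, 2 LKB1-deficient libraries remained, all 35 genes were tested and none was called. At an unadjusted edgeR p under 0.05, 5 were lower and 1 was higher, against 1149 lower and 1282 higher of all 10948 genes. Calls among all genes then fell to 0.895% lower and 1.48% higher. The log2 fold changes were -0.67 for Mdh1 (edgeR adjusted p = 0.0876), -0.44 for Sdhc, -0.4 for Fh1, -0.42 for Idh2, -0.46 for Sdhb and 0.48 for Ogdh. Leaving out any one of control replicates 3 and 4 and of LKB1-deficient replicates 2 and 4 left 1 lower gene, Mdh1, and no higher gene. Over these 4 fits the log2 fold changes of the genes that lost their calls stayed at -0.6 to -0.5 for Sdhc, -0.52 to -0.49 for Fh1, -0.64 to -0.56 for Idh2, -0.6 to -0.52 for Sdhb and 0.5 to 0.56 for Ogdh, with edgeR adjusted p-values of 0.0518 to 0.107. Calls among all genes fell as well. Lower calls were 4.32%, 5.68%, 4.5% and 4.17% and higher calls 5.37%, 6.79%, 6.03% and 5.44% without control replicate 3, control replicate 4, LKB1-deficient replicate 2 and LKB1-deficient replicate 4. Ogdh was also lost without control replicate 2 (adjusted p = 0.057) and with total count scaling (adjusted p = 0.0801). In 20 of 21 other settings Mdh1 stayed called. Sdhc and Fh1 stayed called in 16 each, Idh2 in 15, Ogdh in 13 and Sdhb in 12. Thinning all libraries to the size of the smallest ended the calls of Idh2 and Sdhb (edgeR adjusted p = 0.0522 and 0.0851).

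Sample identifiers begin with ET for replicate 1 and with EU for replicates 2 to 4 in both groups, and the labels do not say what this prefix means. Within EU libraries alone, 3 against 3, the log2 fold changes were -0.89 for Mdh1, -0.66 for Sdhc, -0.61 for Fh1, -0.76 for Idh2, -0.83 for Sdhb and 0.76 for Ogdh, with edgeR adjusted p-values of 0.0189 to 0.0462. With all 8 libraries and the prefix as a term, Sdhb missed the threshold (log2 fold change -0.65, edgeR adjusted p = 0.0573) and the other 5 genes passed. The ET libraries, 1 per group and so without a test, gave log2 ratios of -0.72, -0.36, -0.38, -0.38, -0.1 and 0.07 for the same genes. The ET pair had the smallest differences in Sdhb and Ogdh.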

How the data were processed

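RNA from 4 control and 4 LKB1-deficient samples was made into strand-specific 3' libraries with barcoded oligo-dT primers, per the labels' protocols. The deposited values are unnormalized counts of reads for each gene symbol, aligned with STAR to mm10 per the submitters' processing notes. The labels name neither the counting program nor the annotation. The protocol names no molecular identifiers, and PCR duplicates can inflate counts. Each file lists ambiguous and multiply aligned reads on lines of their own; these 5 lines stayed out of library sizes. No 2 libraries of a group agreed within sampling noise (chi-square over its degrees of freedom, 11.6 to 49).

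Counts were fitted in R 4.3.3 with edgeR 4.0.16 (filterByExpr with minimum count 10 and minimum total 15, TMM, robust quasi-likelihood test, no covariates) over the whole table, with Benjamini-Hochberg adjustment over 10396 genes. Standard errors are approximate, from the fold change and the F statistic. Gene positions and longest transcripts are from GENCODE vM21 (GRCm38), which gave a length for 96.5% of tested genes. The 35 genes, the 37 neighbours, the markers and the tests were chosen with earlier results of these data known. The naming rule gave every one of the 35 genes, with all library values for called genes and for the 8 uncalled genes with the largest fold change. Alternatives used DESeq2 1.42.0, limma 3.58.1 (voom), other scalings and filters, a replicate block, a prefix term, left-out libraries, thinning to 3454388 counts, and removal of each library's lowess trend on length (span 0.3). Some neighbouring genes are counted but not reported here by name.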

Additional observations from a re-analysis of the deposited data

Results flagged for a closer look

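In 70 sets of 4 libraries (35 genes in 2 groups), 2 held a library far from the other 3 by Dixon's test at the 95% level, and chance flags about 1 set in 20. Idh3a was at 313 CPM in LKB1-deficient replicate 4, against 157 to 176 CPM in the other LKB1-deficient libraries. Pdp1 was at 2.7 CPM in the same library, against 5.51 to 5.91 CPM in the others. Neither gene was called with all libraries.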

How the results depend on the processing

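Among the 35 genes, the number called higher was 1 with all libraries, 2 with the DESeq2 Wald test, and 0 with total count scaling, the replicate block, an adjusted p under 0.01 or both LKB1-deficient replicates 2 and 4 left out; it ranged from 0 to 1 when single libraries were left out. The number called lower was 5, and became 3 after thinning and 0 with both replicates left out or an adjusted p under 0.01, with a range of 1 to 6 when single libraries were left out. Calls among all genes moved as well, from 1286 higher and 1051 lower of 10396 with all libraries. They were 1704 and 1343 with the DESeq2 Wald test, 829 and 1576 with total count scaling and 1075 and 827 in the replicate block. After thinning they were 930 and 709 of 9747. Among neighbours, the 4 called higher became 2 with total count scaling, 1 with the length trend removed and 0 with both replicates left out or the stricter threshold, and ranged from 2 to 4 over single libraries. The 3 called lower became 1 with both replicates left out and 1 with the stricter threshold, and ranged from 2 to 5. The causes were not tested, except that leaving out libraries leaves fewer samples and thinning fewer counts. In the replicate block 4 of the 35 genes were lower. Deviations of same-numbered libraries had correlations of mixed sign (r = -0.251, 0.291, 0.3 and -0.086). Those of differently numbered libraries ran from -0.372 to 0.34. The numbers were not taken to pair libraries, although these values cannot exclude a pairing and number 1 has the ET prefix in both groups. Of the genes named, the block ended the calls of Sdhb (adjusted p = 0.0715), Ogdh (0.0514) and Slc38a2 (0.0571).

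None of the called genes changed sign under any alternative. The 11 genes that did were uncalled. With DESeq2 size factors and with its Wald test, Pdha1 and Cs came to 0.00. With both replicates left out, Pdha1, Dld, Pcx and Cs came to 0.01, 0.00, 0.08 and 0.16 and Stk11 to 0.18. With the length trend removed, Pdha1, Pdhx, Cs and Mdh2 came to 0.06, 0.02, 0.04 and 0.06. Thinning gave Cs 0.01. With upper quartile scaling Dlst and Got1 were at -0.03 and -0.09, and with total counts Dlst, Got1 and Got2 at -0.10, -0.15 and -0.01. Got1 was at -0.03 with no filter, -0.01 at a mean CPM of at least 10 and -0.10 in EU libraries, where Stk11 was at 0.10. Over single libraries left out, the ranges were -0.07 to 0.04 for Pdha1, -0.07 to 0.09 for Cs, -0.29 to 0.03 for Idh1, -0.02 to 0.12 for Dlst, -0.06 to 0.07 for Got1 and -0.22 to 0.08 for Stk11. Low counts limit Mpc1, Pcx and Pdk2.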
